A study of Arabidopsis thaliana with 2 samples.

Results

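The genes described here carry the names of families that build, rearrange or loosen the plant cell wall, and were chosen by those names. A gene was a member when its symbol in the platform annotation began with XTH, EXPA, EXPB, EXLA, EXLB, CESA, CSL, GAUT, PME or IRX and the feature was annotated with 1 gene. This gave 36 genes, each with 1 feature, of the 9236 genes named on the array. They fell into 15 expansins, 8 xyloglucan endotransglucosylase/hydrolases (XTH), 3 genes with the prefix PME and 10 genes with the prefixes CSL or IRX. No gene with the prefix CESA (the cellulose synthases) or GAUT (the galacturonosyltransferases of pectin synthesis) had a named feature. The current gene table holds 136 genes with these 10 prefixes, so 100 of them have no value here, and some of those may lie among the unnamed features.

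The primary wall of a growing plant cell is a network of cellulose microfibrils tied together by xyloglucan and embedded in pectin. Expansins loosen this network without cutting it, and XTH enzymes cut xyloglucan chains and rejoin or hydrolyse them. Pectin methylesterases remove methyl groups from pectin and so alter its stiffness, while some of the CSL (cellulose synthase-like) proteins make the backbones of hemicelluloses in the Golgi. Members of all these families are active in expanding leaves and stems.

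RNA was compared between the wax-deficient Arabidopsis mutant cer6-2 and its wild type Ler-0. CER6 encodes a ketoacyl-CoA synthase that lengthens fatty acids for wax. Each genotype was 1 pool of 20 untreated plants, harvested as aerial parts at 15 days per the sample labels or 2 weeks per the design text, and grown at 80% humidity and 22 °C in days of 16 h light and nights of 8 h. Array 1 carried cer6-2 in Cy3 and Ler-0 in Cy5, and array 2 the same pair with exchanged dyes.

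Each value below is a log2 ratio of cer6-2 over Ler-0, and each mean ± SD is over the 2 arrays. The arrays measured the same 2 pools, so they count as 1 replicate and no test between the genotypes was possible. The SD shows technical differences alone, and these include any effect of the exchanged dyes on a gene. A gene was called when it was at least 2-fold from 0 the same way in both arrays, a rule of size. The direction is likely, not settled: it rests on the stated dyes and on reading the deposited ratio as Cy5 over Cy3, and under the opposite reading every sign here turns. In a pool of whole shoots, fewer cells of a type and less RNA per cell cannot be told apart. The table holds ratios without signal levels, so neither the level of a gene nor its detection could be judged, and the levels of 2 genes were not compared.

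The 2 arrays did not share a sign for most genes. Over all 9236 genes, 53.6% had opposite signs in the 2 arrays, 20.4% were below 0 in both and 23.1% were above 0 in both. Among the 36 members, 15 (41.7%) had opposite signs, 15 (41.7%) were below 0 in both, 4 (11.1%) were above 0 in both and 2 were listed at 0 in at least 1 array. The tissue markers were thinly covered. Of 12 leaf and stem markers 3 were measured, with RCA at 0.08 ± 0.04, LHCB4.1 at 0.08 ± 0.07 and LHCB4.2 at 0.25 ± 0.66. The arrays gave LHCB4.2 opposite signs, 0.71 in array 1 and -0.22 in array 2. Of 8 root markers 4 were measured, with PYK10 at 0.73 ± 0.08, EXPA7 at -0.46 ± 1.02, EXPA18 at -0.15 ± 0.30 and XTH26 listed at 0. EXPA7, EXPA18 and XTH26 are themselves members, so PYK10 alone lies outside the list. None of the 9 xylem markers had a named feature. The part of tissue makeup in the results was not tested.

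Of the 36 members, 2 were called lower in cer6-2, the expansin-like gene EXLB1 and the xyloglucan enzyme gene XTH20, and none was called higher. Both calls end if the values are log2 in place of log10 ratios (0 lower). They also end if the authors had already turned the columns to one direction (0 lower, 2 apart in opposite ways). Neither point is stated in the sources used here. As deposited, 122 genes past 2-fold in both columns had opposite signs and 15 the same, so the columns were read as not turned. Over all genes measured, 0.725% were called lower and 0.595% higher (1.32% in either direction). The 2 members make up 5.56% of the list, and with 36 genes such a share rests on very few. None of the 36 was at least 2-fold apart in opposite ways, against 0.162% of all genes. The median of the 36 means was -0.13, with -0.11 in array 1 and -0.21 in array 2, beside a median of 0 over the means of all genes. At a 1.5-fold threshold in both arrays, 5 members were lower (EXLB1, XTH20, EXPB3, EXPA8 and PMEAMT) and 1 was higher (EXLA3), against 1.91% and 1.80% of all genes.

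**Figure D1:**
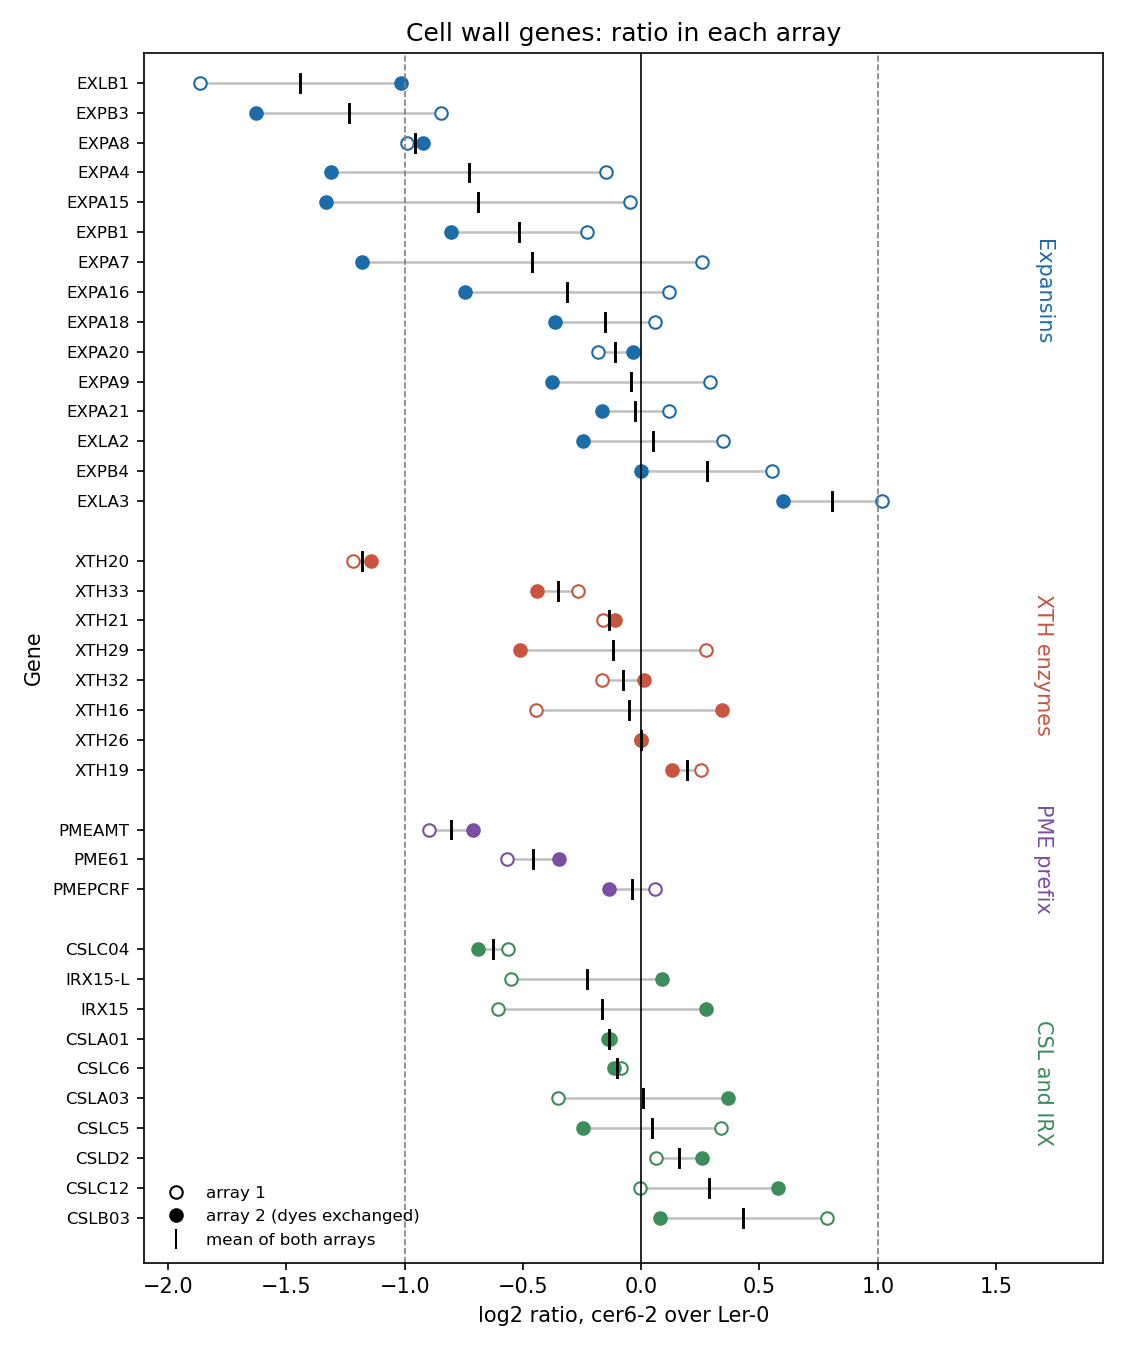
Log2 ratio of cer6-2 over Ler-0 for each of the 36 genes in array 1 (open circles) and array 2 (filled circles), with the mean of both as a black bar and dashed lines at 2-fold. EXLB1 and XTH20 have both circles beyond the left dashed line, and the 9 EXPA genes all have array 2 below 0.

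The expansins held the lowest and the highest ratio of all members. EXLB1 had the lowest mean, and EXLA3, another expansin-like gene, the highest. Of the 15 expansins, 12 had a mean below 0, 7 were below 0 in both arrays and 1, EXLA3, was above 0 in both. Over all genes, 48.7% had a mean below 0. The expansin median was -0.31, and -0.13 without the features that differed over 2-fold between the arrays. In array 2 the median was -0.75 and 13 of 15 expansins were below 0. In array 1 the median was 0.06 and 7 of 15 were below 0. The medians of all genes were 0.03 in array 2 and -0.01 in array 1, with 44.4% and 50.6% of them below 0.

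EXLB1 (AT4G17030) is the only member of its subfamily in Arabidopsis and has an expansin-like structure, with no known loosening activity. It stood at -1.87 in array 1 and -1.02 in array 2, 3.65-fold and 2.02-fold lower in cer6-2. Its mean was -1.44 ± 0.60, or 2.72-fold lower, and the 41st lowest of all genes. The value in array 2 lay close to the 2-fold limit, so the call rests on a narrow margin there.

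The alpha-expansins (EXPA) are the family known to loosen walls at acid pH. All 9 measured had means below 0, all 9 were below 0 in array 2 and 4 of 9 in array 1, and none was called. Of all genes, 44.4% were below 0 in array 2 and 50.6% in array 1, so the excess below 0 lay in array 2 alone. EXPA8 (AT2G40610) stood at -0.99 in array 1 and -0.92 in array 2, just inside the 2-fold limit in each. Its mean was -0.96 ± 0.05, so the 2 arrays were closer for it than for any other alpha-expansin.

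EXPA4 (AT2G39700) stood at -0.15 in array 1 and -1.31 in array 2, with a mean of -0.73 ± 0.82. EXPA15 (AT2G03090) stood at -0.05 in array 1 and -1.33 in array 2, with a mean of -0.69 ± 0.91. Both were beyond 2-fold in array 2 alone, and near 0 in array 1, so array 2 decides their means. EXPA7 (AT1G12560), an expansin of root hair cells, stood at 0.26 in array 1 and -1.18 in array 2. The other root hair expansin, EXPA18 (AT1G62980), stood at 0.06 in array 1 and -0.37 in array 2. The arrays gave both root hair genes opposite signs.

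EXPA16 (AT3G55500) had 0.12 in array 1 and -0.75 in array 2, again with the difference in array 2 alone. EXPA20 (AT4G38210) had -0.18 in array 1 and -0.04 in array 2. EXPA9 (AT5G02260) had 0.29 in array 1 and -0.38 in array 2, and EXPA21 (AT5G39260) 0.12 in array 1 and -0.17 in array 2. These last 2 had the means nearest to 0 among the alpha-expansins, at -0.04 ± 0.47 and -0.03 ± 0.20.

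Beta-expansins (EXPB) share the expansin fold and are best known from grasses, where those of pollen loosen the walls of the stigma and style. EXPB3 (AT4G28250) stood at -0.85 in array 1 and -1.63 in array 2, with a mean of -1.24 ± 0.55 (2.36-fold lower), the 71st lowest of all genes. It was not called, because array 1 fell short of 2-fold. EXPB1 (AT2G20750) stood at -0.23 in array 1 and -0.81 in array 2, with the same sign in both. EXPB4 (AT2G45110) stood at 0.55 in array 1 and was listed at 0 in array 2, for a mean of 0.28 ± 0.39.

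The 2 expansin-like A genes measured were not called. EXLA3 (AT3G45960) stood at 1.02 in array 1 and 0.60 in array 2, a mean of 0.81 ± 0.30 or 1.75-fold higher, with array 2 short of 2-fold. EXLA2 (AT4G38400) stood at 0.35 in array 1 and -0.24 in array 2, with a mean of 0.05 ± 0.42. So no direction was common to the 3 expansin-like genes.

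At the 2-fold limit in a single array, 5 expansins were lower in array 2 (EXPB3, EXPA15, EXPA4, EXPA7 and EXLB1) and 1 in array 1 (EXLB1). The shares of all genes past that limit on the lower side were 2.17% in array 2 and 2.33% in array 1. The low expansin ratios past 2-fold, other than that of EXLB1, were therefore those with cer6-2 in Cy5, and not those with cer6-2 in Cy3. The part of the dye in it was not tested.

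**Figure D2:**
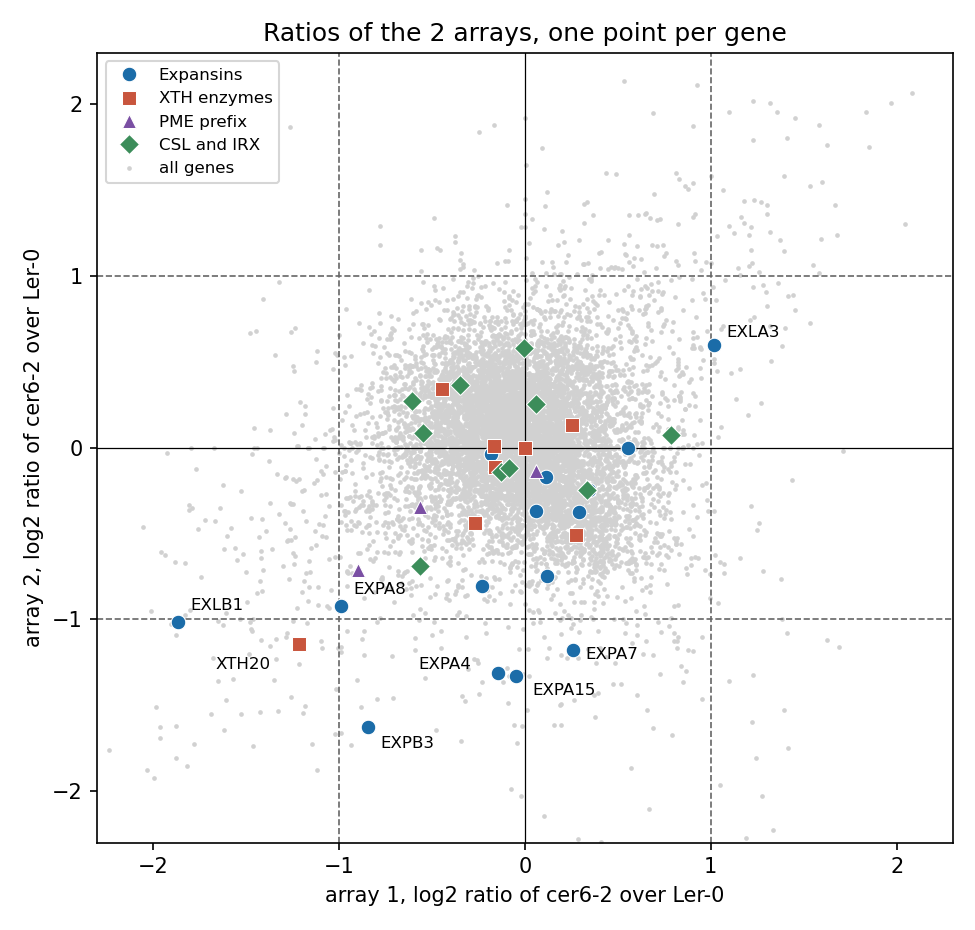
Log2 ratio of cer6-2 over Ler-0 in array 1 (horizontal) and array 2 (vertical) for all genes (grey) and the 36 members (coloured by family), with dashed lines at 2-fold. EXLB1 and XTH20 lie in the lower left corner beyond both lines, EXPB3 and EXPA8 just outside it, and EXPA4, EXPA15 and EXPA7 are low on the vertical axis alone. The axes stop at 2.3, and 28 genes beyond that are not drawn.

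The xyloglucan enzymes were led by XTH20. XTH20 (AT5G48070), known with XTH19 from the joining of cut stem tissue, stood at -1.22 in array 1 and -1.14 in array 2, 2.32-fold and 2.21-fold lower in cer6-2. Its mean was -1.18 ± 0.05, or 2.26-fold lower, the 79th lowest of all genes, and the arrays were nearly alike. XTH19 (AT4G30290), a close paralog of XTH20, stood at 0.25 in array 1 and 0.13 in array 2, with a mean of 0.19 ± 0.09. The pair thus lay on opposite sides of 0, each with the same sign in both arrays. Probes of close paralogs can share signal, which was not tested.

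The other 6 xyloglucan enzymes had means from -0.35 to 0. XTH33 (AT1G10550), which carries a membrane anchor, stood at -0.27 in array 1 and -0.44 in array 2, with a mean of -0.35 ± 0.12. XTH21 (AT2G18800), known from root growth, stood at -0.16 in array 1 and -0.11 in array 2. XTH32 (AT2G36870), of the group of predicted xyloglucan hydrolases, stood at -0.16 in array 1 and 0.01 in array 2. All 3 stayed well within 2-fold in both arrays.

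XTH29 (AT4G18990) stood at 0.27 in array 1 and -0.51 in array 2, and XTH16 (AT3G23730) at -0.44 in array 1 and 0.34 in array 2. For these 2 genes the arrays disagreed by more than the size of either mean (-0.12 ± 0.55 and -0.05 ± 0.56). XTH26 (AT4G28850), an enzyme of roots and root hairs, was listed at 0 in both arrays, a value that carries no information on its level. Of the 8, 6 had a mean below 0 and 3 were below 0 in both arrays. The median was -0.10, with -0.16 in array 1 and -0.05 in array 2.

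Of the 3 genes with the prefix PME, 2 are pectin methylesterases. PME61 (AT3G59010), also named PME35, stood at -0.57 in array 1 and -0.35 in array 2, with a mean of -0.46 ± 0.15 or 1.37-fold lower, and was not called. PMEPCRF (AT5G53370) stood at 0.06 in array 1 and -0.14 in array 2, with a mean of -0.04 ± 0.14. No pectin methylesterase inhibitor carried a symbol with this prefix.

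The third, PMEAMT (AT1G48600), is a phosphoethanolamine N-methyltransferase of phosphocholine synthesis and no gene of the wall, a member by its letters alone. It stood at -0.90 in array 1 and -0.71 in array 2, with a mean of -0.80 ± 0.13 or 1.75-fold lower. It was the lowest of the 3, and the median of the prefix was -0.46 with it and -0.25 for the 2 methylesterases.

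The genes with the prefixes CSL or IRX, grouped here as synthases by prefix alone, lay on both sides of 0. Of 10, 5 had a mean below 0 and 5 above, and the median was -0.05, with -0.11 in array 1 and 0.08 in array 2. None was called, and none was 2-fold from 0 in either array. The CSLC proteins make the glucan backbone of xyloglucan. CSLC04 (AT3G28180), the first of them shown to do so, had the lowest mean of the synthases and stood at -0.56 in array 1 and -0.69 in array 2. Its mean was -0.63 ± 0.09, or 1.54-fold lower, with the same sign in both arrays.

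The other 3 CSLC genes were spread around 0. CSLC6 (AT3G07330) stood at -0.08 in array 1 and -0.12 in array 2. CSLC5 (AT4G31590) stood at 0.34 in array 1 and -0.25 in array 2. CSLC12 (AT4G07960) stood at -0.01 in array 1 and 0.58 in array 2, for a mean of 0.29 ± 0.41. So the 4 genes of the xyloglucan backbone had no common direction.

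CSLB03 (AT2G32530), of a subfamily with no settled product, had the highest mean of the synthases at 0.43 ± 0.50, from 0.78 in array 1 and 0.08 in array 2. CSLD2 (AT5G16910), which acts in tip growth of root hairs, stood at 0.06 in array 1 and 0.26 in array 2. The CSLA proteins make glucomannan. CSLA01 (AT4G16590) stood at -0.13 in array 1 and -0.14 in array 2, and CSLA03 (AT1G23480) at -0.35 in array 1 and 0.37 in array 2, so the mean of CSLA03 was 0.01 ± 0.51 although each array lay away from 0.

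IRX15 (AT3G50220) and its paralog IRX15-L (AT5G67210) act in xylan synthesis of secondary walls. IRX15 stood at -0.61 in array 1 and 0.27 in array 2, and IRX15-L at -0.55 in array 1 and 0.09 in array 2. Both were below 0 in array 1 and above 0 in array 2. Their means were -0.17 ± 0.62 and -0.23 ± 0.45.

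**Figure D3:**
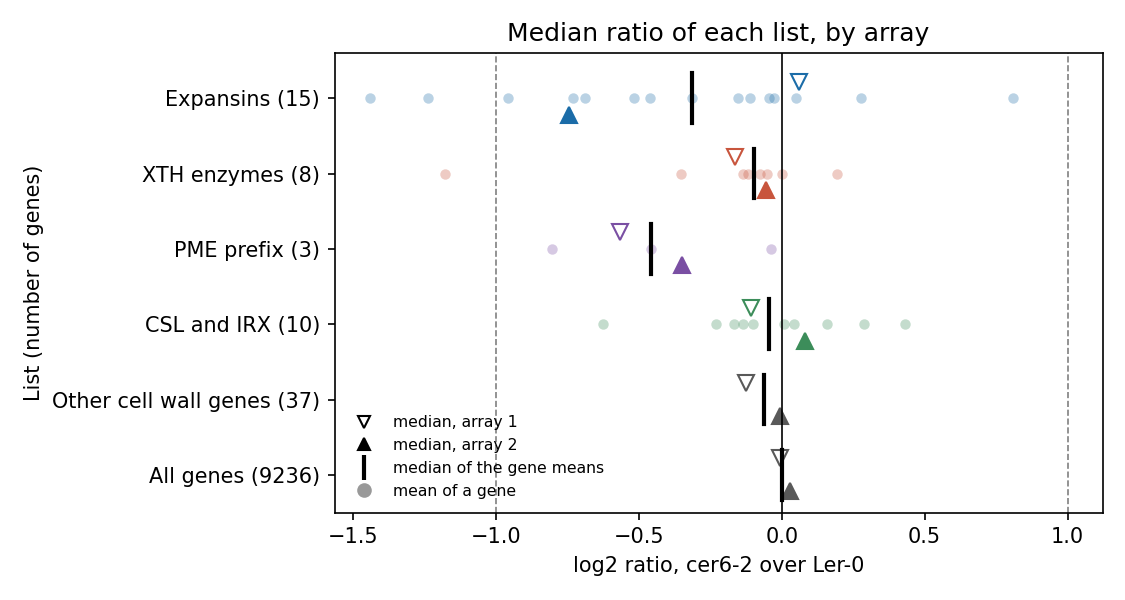
Median log2 ratio of cer6-2 over Ler-0 for each family, for 37 other cell wall genes and for all 9236 genes, in array 1 (open triangles), in array 2 (filled triangles) and of the gene means (black bars), with each member's mean as a pale circle and dashed lines at 2-fold. The expansin medians of -0.75 in array 2 and 0.06 in array 1 are the farthest apart, and the medians of all genes lie at 0.03 and -0.01.

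A separate list of other cell wall genes, also chosen by symbol, held 37 measured genes. Most were endoglucanases of family GH9 (14 genes), which cut glucan chains, or members of the TBL family (17 genes), known for acetylating wall polysaccharides. Of the 37, 1 (2.70%) was called lower and none higher, against 0.725% and 0.595% of all genes. The median of the 36 members was -0.13, with -0.11 in array 1 and -0.21 in array 2. The median of the other cell wall genes was -0.06, with -0.13 in array 1 and -0.0068 in array 2, so the lists differed mainly in array 2. A mean below 0 was found for 26 of 36 members and 20 of 37 other cell wall genes. The called gene was GH9C2 (AT1G64390), at -1.01 in array 1 and -1.40 in array 2, a mean of -1.21 ± 0.27 or 2.31-fold lower.

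The second lowest of that list was another endoglucanase, GH9B13, at -0.64 ± 0.16. The highest were TBL37 at 0.76 ± 0.05 and GH9B11 at 0.37 ± 0.53, which was listed at 0 in array 2. The GH9 genes had a median of -0.12 and the TBL genes one of 0.0049.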

How the data were processed

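The authors' deposited table gives 22575 features of Agilent Arabidopsis 2 two-colour arrays a value per array, read here as a log10 ratio. The base is not stated and was inferred from the limit of the values, 2 in size, a 100-fold ratio. An RNeasy plant kit gave the total RNA and an Agilent kit labelled it directly, per the labels' protocols. How background and dyes were corrected, and with which software, is not given in the sources used here. Array 1 was multiplied by -1 and values were converted to log2. As deposited, 122 genes past 2-fold in both columns had opposite signs and 15 the same, so neither column was taken to have been turned by the authors. Gene symbols came from the platform annotation, matched by gene identifier to a gene table of assembly TAIR10.1. Of 9375 annotated features, 9317 had 1 matched gene, for 9236 genes. Features of a gene were averaged. No test was run. The calling was run on simulated data (Python 3.11.15, pandas 2.3.3, numpy 2.4.6). The changes planted there were larger than 2-fold, so that run says nothing of genes near the limit. The members and lists were chosen with earlier results of these data known. All members were to be named, with full values for called genes and for the 2 highest and 2 lowest means of each family. Precision is limited by the 2 arrays, and no depth applies. Alternatives covered sign, centring, log base, thresholds, single arrays and membership.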

Additional observations from a re-analysis of the deposited data

How the results depend on the processing

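The number of members called lower was 2, and it was 5 at 1.5-fold, 0 at 3-fold, 3 by the mean of both arrays and 0 with values read as log2. The number higher was 0, and 1 at 1.5-fold. Of all genes, 1.91% were lower and 1.80% higher at 1.5-fold, and 0.217% lower and 0.119% higher at 3-fold. For the mean or log2 no share was taken. The 3 means ranked 41st to 79th lowest of 9236. With single arrays, 2 members were lower and 1 higher in array 1, and 6 lower and 0 higher in array 2. Of all genes, 2.33% were lower in array 1 and 2.17% in array 2. Of the 9236 genes, 114 were higher in array 1 and 169 in array 2. With the columns taken as turned before deposit, 0 members were called lower and 2 were 2-fold apart in opposite ways, by construction. XTH20 then stood at 0.038 and EXLB1 at 0.42, reversed. Under that reading the medians were -0.29 for the expansins, 0.013 for the xyloglucan enzymes, 0.094 for the PME prefix and 0.047 for the synthases. Read as log2, by construction, the expansins had -0.094, the PME prefix -0.14 and all members -0.038. As means, the xyloglucan enzymes stood at -0.22 and all members at -0.25. A mean takes in the size of the farthest values, with XTH20 at -1.18, EXLB1 at -1.44 and the highest member, EXLA3, at 0.81. Without PMEAMT, chosen after seeing the data, the PME prefix had a median of -0.25, since 2 genes remain, and without EXPA7 and EXPA18, chosen likewise, the expansin median was -0.31. With single arrays the medians ran from -0.21 to -0.11 for all members, -0.75 to 0.06 for expansins, -0.16 to -0.05 for xyloglucan enzymes, -0.57 to -0.35 for the PME prefix and -0.11 to 0.08 for synthases. Without features differing over 2-fold between arrays the expansin median was -0.13. Members by a synonym added XTH27, CSLC08 and PME41, none called, and the synthase median was then 0.01. Centring changed no call. Leaving out zeros and averaging by the median could change none, by construction. Each member has 1 feature, and a gene listed at 0 in both arrays is never called. No paired analysis was possible because each genotype was 1 pool. Signal over background is not in the table, so its limit is unknown.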
